A study of Homo sapiens with 12 samples.

Results

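A set of 8 kinases of serine/arginine-rich splicing factors were examined at the RNA level in A549 cells, a line grown from a human lung adenocarcinoma. The genes were CLK1, CLK2, CLK3, CLK4, SRPK1, SRPK2, DYRK1A and PRPF4B. They were picked by gene symbol as kinases of these factors that are known for detained introns, which are explained below. Each symbol had 1 row, so that 8 of the 22564 genes in the deposited table were followed. Total RNA had been sequenced from 6 libraries of cells transfected with small interfering RNA against YTHDC1 (siYTHDC1), the nuclear reader of N6-methyladenosine (m6A), and from 6 libraries that received a scrambled siRNA (siSCR). Both siRNAs were used at 40 nM for 48 to 72 h in the same culture medium, and the labels name no further treatment.

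The deposited table has no column per library. Its only level is the authors' mean normalized count over all 12 libraries, in which siYTHDC1 and siSCR cells are pooled. The other numeric columns hold the authors' own comparison of both groups and were not used here. The values below therefore describe how strongly each kinase was represented in these cells, with no spread between libraries and no difference between siYTHDC1 and siSCR, and the depth of each library is unknown. YTHDC1 itself had an authors' mean of 232 normalized counts, a pooled value that cannot check the knockdown.

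SR proteins carry a domain of arginine and serine repeats whose phosphorylation sets where they are in the cell and whether they bind the spliceosome. SRPK1 and SRPK2 phosphorylate this domain mainly in the cytoplasm and so promote nuclear import. CLK1 to CLK4, also known as LAMMER kinases, add phosphates in the nucleus and release SR proteins from nuclear speckles. DYRK1A is a nuclear kinase that phosphorylates several splicing factors and is encoded in the Down syndrome region, and PRPF4B (also known as PRP4K) is a kinase of the U4/U6.U5 tri-snRNP that takes part in assembling the spliceosome. CLK transcripts are a textbook case of detained introns: part of the polyadenylated RNA keeps the introns around exon 4, stays in the nucleus and can be spliced later when CLK activity falls. CLK protein lacking the exon 4 sequence has no kinase domain, since the reading frame is lost.

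Exon 4 of the CLK genes and the introns on both sides are shown first, because they carry this known regulation. Sequences were read from GRCh37, the build of the authors' alignment, 5′ to 3′ on the gene's own strand. Exon 4 of CLK1 is on chromosome 2 (201724848 to 201724938, minus strand) and that of CLK4 on chromosome 5 (178044345 to 178044435, minus strand). Both are coding exons of 91 bases.
CLK1 exon 4: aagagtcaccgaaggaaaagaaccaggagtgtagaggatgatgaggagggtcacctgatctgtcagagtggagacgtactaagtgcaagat
CLK4 exon 4: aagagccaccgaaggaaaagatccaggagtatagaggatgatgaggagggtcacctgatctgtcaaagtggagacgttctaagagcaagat
The paralogs have the same base at 85 of 91 positions (93.4%). Exon 4 is 88 bases long in CLK2 and 97 in CLK3. All 4 lengths leave a remainder of 1 when divided by 3, so that skipping the exon shifts the reading frame in each gene. The annotation holds such a skipping transcript for each of them, namely 1 for CLK1, 1 for CLK2, 4 for CLK3 and 2 for CLK4. A length not divisible by 3 is not particular to exon 4. In each CLK gene exon 6 (117 bases) is the only internal exon whose length is divisible by 3.

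The 5′ splice site behind exon 4 was among those with the fewest matches to the consensus in these genes. It is printed as the last 3 exon bases and the first 6 intron bases, with the invariant GT of the intron in capitals.
CLK1 intron 4 donor: gatGTatag
CLK2 intron 4 donor: gatGTacaa
CLK3 intron 4 donor: gatGTacag
CLK4 intron 4 donor: gatGTatag
Each of these donors matches the consensus CAGGTAAGT at 4 of 9 positions, and those of CLK1 and CLK4 are identical. Over 152432 introns of the canonical transcripts of 13704 protein-coding genes in the table, 1.81% had 4 matches or fewer, and the median was 6. Among the 103 introns of the 8 kinases 6 did, and intron 4 of the CLK genes made up 4 of them. This limit is the value of the exon 4 donors themselves. With 5 matches or fewer the kinases (18.4%) were near the value over all these introns (17.2%). The remaining 2 were intron 10 of SRPK1 (ttgGTataa) and intron 6 of SRPK2 (tacGTatcc). A count of matches describes the letters only, and is no measure of how well a site is spliced.

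Intron 3, in front of exon 4, had donors closer to the consensus. The 20 last intron bases and the first 3 bases of exon 4 are printed next, with the AG of the intron in capitals, because this is the other splice site next to exon 4.
CLK1 intron 3 acceptor: cgcccacttgacgtttccAGaag
CLK4 intron 3 acceptor: ctgcccacttgccgttccAGaag
CLK3 intron 3 acceptor: tcggggggcggtgcatgcAGaga
CLK2 intron 3 acceptor: ccccccctgccccccgacAGcag
Of the 18 bases before the AG, 13 were pyrimidines in CLK1, 14 in CLK4 and 15 in CLK2, against 7 in CLK3. The CLK3 site thus stood apart from its paralogs by a purine-rich stretch. All 103 introns of the 8 genes began with GT and ended with AG.

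Annotated intron retention was then compared across the 8 genes. An intron of the canonical transcript was counted as covered where it lay wholly inside an exon of a transcript that GENCODE labels as retained intron. Covered introns were found in 4 of 8 kinases, CLK1, CLK3, CLK4 and SRPK1, and among 13704 protein-coding genes of the table with introns in 3753 (27.4%). In all, 11 of 103 introns were covered (10.7%, against 6.10% over all these genes). The kinases were picked as known for detained introns, so a share above that of all genes is no independent evidence of retention. CLK1 held covered introns 2, 3, 4 and 7, CLK4 introns 3, 4, 11 and 12, and CLK3 introns 3 and 4. Introns 3 and 4 were therefore covered in 3 of 4 CLK genes. CLK2 had no transcript of this type in the annotation, although its exon 4 donor is like that of its paralogs. In SRPK1 only the first intron was covered, and SRPK2, DYRK1A and PRPF4B had none.

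Retained-intron transcripts made up a large part of what is annotated for CLK1 (8 of 14) and CLK4 (7 of 13). CLK3 had 8 of 27, SRPK1 had 4 of 13, DYRK1A 4 of 23, SRPK2 2 of 15 and PRPF4B 1 of 9. Thus 3 of 8 kinases had 7 or more such transcripts, against 8.17% of the 13704 protein-coding genes with introns, whose median was 1. The limit of 7 equals the value of CLK4, the lowest of these 3 kinases. The contrast therefore rests on the kinases' own values and is no independent evidence. Among protein-coding genes with a mean of at least 100, which all 8 kinases reach, the share was higher than 8.17%. These numbers are a property of the annotation and not a measurement in A549 cells, and reads over single introns were not analysed here.

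**Figure D1:**
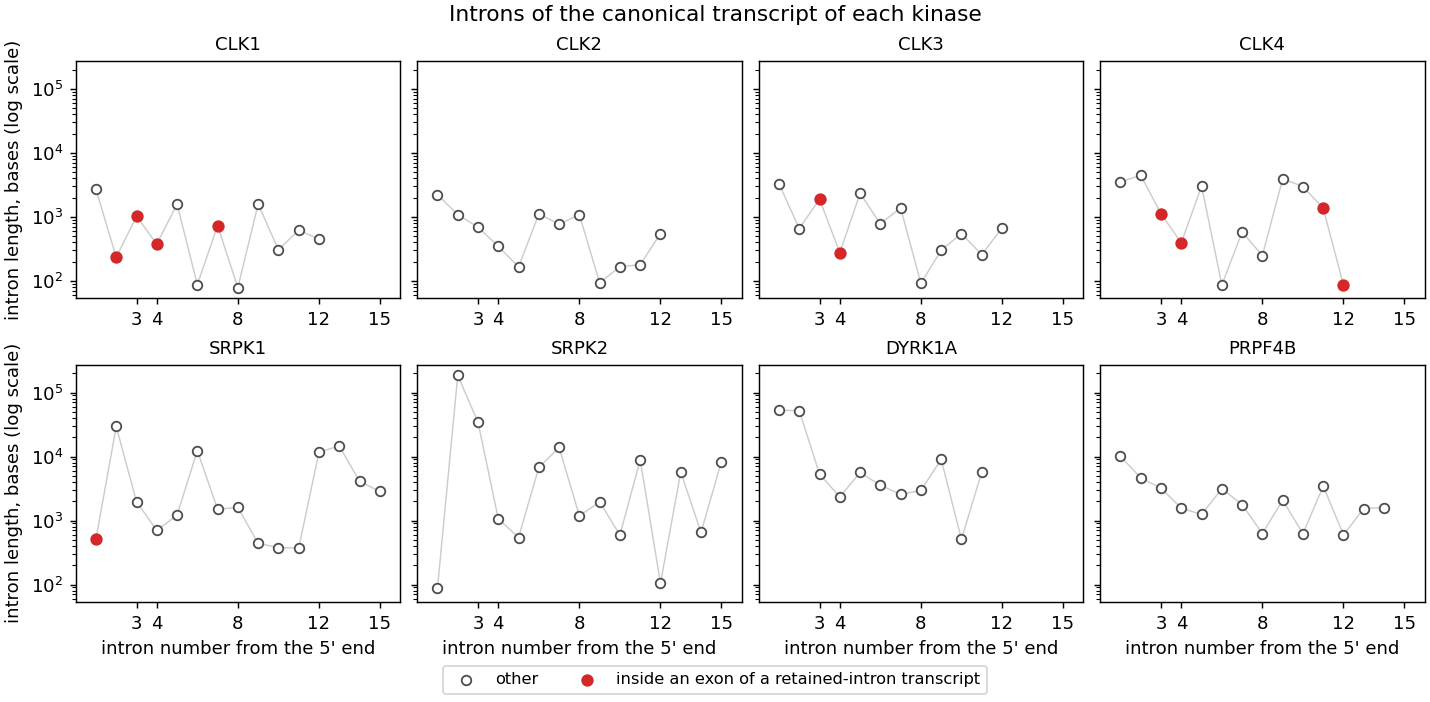
Length of each intron of the canonical transcript (y axis, bases, log scale) against its number from the 5′ end (x axis), one panel per kinase, with filled points for introns inside an exon of an annotated retained-intron transcript. Introns 3 and 4 are filled in CLK1, CLK3 and CLK4, and the 11 filled introns run from 86 to 1894 bases.

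The covered introns measured 86 to 1894 bases. Within a gene they were not shorter throughout. In CLK1 their median was 555 bases (537.5 for its other introns) and in CLK3 1085.5 bases (667), whereas in CLK4 it was 758 bases (3015.5), and the 1 covered intron of SRPK1 had 515 bases (1787). Introns 3 and 4 measured 1022 and 378 bases in CLK1, 1121 and 395 bases in CLK4, and 1894 and 277 bases in CLK3. CLK1 spans 11.7 kb, CLK2 15.6 kb, CLK3 46.9 kb and CLK4 27952 bases, where the median protein-coding gene with introns spans 35.2 kb. SRPK2 spans 289 kb with a second intron of 185 kb and DYRK1A spans 161 kb.

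All 8 kinases were detected in A549 cells, each above the median gene of the table (65.8 normalized counts). SRPK1 (chromosome 6, 35800743 to 35889119, minus strand) had the highest authors' mean, 2111 normalized counts, which was higher than 95.3% of all genes. SRPK2 (chromosome 7, 104751151 to 105039755, minus strand), its close paralog, had 932 normalized counts. Before any correction for length SRPK1 thus stood 2.27 times above SRPK2 as the authors' means give it.

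DYRK1A (chromosome 21, 38737875 to 38898660, plus strand) had an authors' mean of 1260 normalized counts. PRPF4B (chromosome 6, 4021501 to 4065217, plus strand) had nearly the same value, 1254 normalized counts, higher than 90.1% of all genes. These genes differ in transcript length, so that equal counts do not mean equal numbers of molecules.

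The CLK genes formed the lower end. CLK1 (chromosome 2, 201717732 to 201729414, minus strand) had an authors' mean of 500.1 normalized counts, CLK3 (chromosome 15, 74890841 to 74937755, plus strand) 423, CLK4 (chromosome 5, 178029665 to 178057616, minus strand) 331 and CLK2 (chromosome 1, 155232659 to 155248282, minus strand) 166. CLK2 was the only kinase of the 8 below the median of protein-coding genes (313 normalized counts). Together the 4 CLK genes had 1420 normalized counts and the 2 SRPK genes 3043. Whether neighbours in this order differ beyond the spread between libraries could not be determined, because the table gives no such spread.

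**Figure D2:**
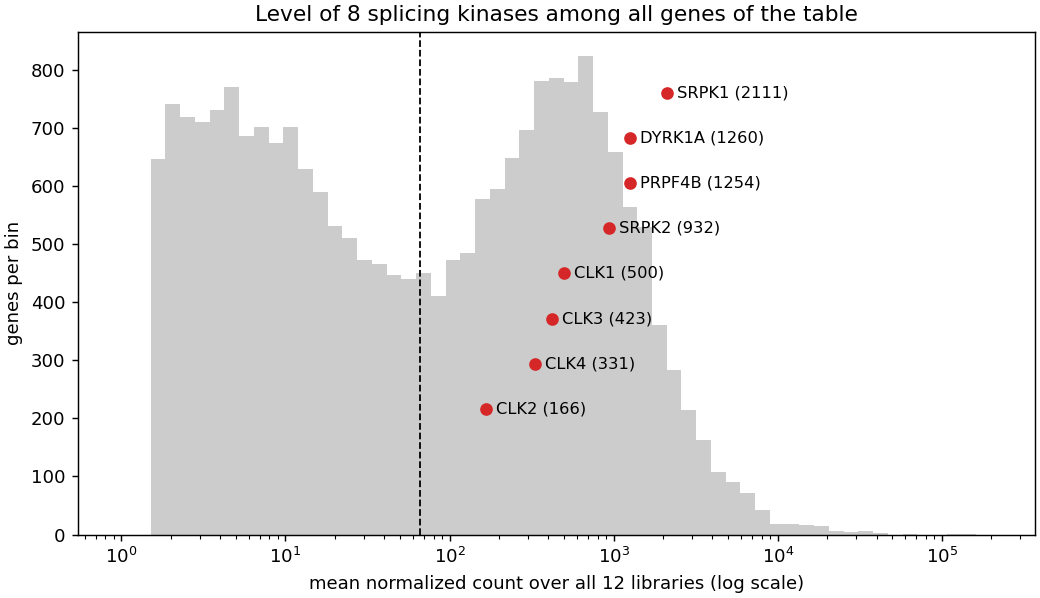
Authors' mean of the normalized counts, siYTHDC1 and siSCR pooled (x axis, log scale), for the 8 kinases (red points, values in brackets, height arbitrary) over a histogram of all 22564 genes (grey, genes per bin on the y axis), with the median gene as a dashed line. All 8 points lie right of the median of 65.8, from CLK2 at 166 to SRPK1 at 2111.

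Levels between genes were compared per kilobase of transcript. With the MANE Select transcript, the single reference isoform shared by GENCODE and RefSeq, SRPK1 stood first at 486 normalized counts per kb. CLK1 (271 per kb), SRPK2 (253 per kb) and CLK3 (228 per kb) followed, then PRPF4B (167 per kb) and CLK4 (132 per kb). CLK2 (77.2 per kb) and DYRK1A (74.0 per kb) were lowest. On this scale the 4 CLK genes summed to 708 normalized counts per kb and the 2 SRPK genes to 739. These sums hold for this length only. With the union of all annotated exons each CLK gene (97.7 per kb or less) lay below SRPK2 (120 per kb) and SRPK1 (315.5 per kb). DYRK1A moved from the second place by count to the last, with a reference transcript of 17023 bases. All lengths here and below are those of GENCODE release 44, whereas the authors counted reads on release 19. Bases that only release 44 holds add length but could add no reads. Reads on exons of release 19 outside the MANE Select transcript add to the count but not to that length. How far either point moved each value was not examined.

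The order depended on the length that was used. With the union of all annotated exons, SRPK1 was again first (315.5 per kb), but PRPF4B came second (149 per kb), then SRPK2 (120 per kb) and CLK1 (97.7 per kb). CLK3 fell to the last place at 21.5 per kb. Its exon union measured 19697 bases, of which 90.6% lay outside the canonical transcript of 1854 bases. The value of CLK3 per kb was 10.6 times higher with the MANE Select transcript than with the union, and that of PRPF4B 1.12 times. Above the median of protein-coding genes per kb of exon union (58.6) were 4 of 8 kinases, SRPK1, PRPF4B, SRPK2 and CLK1. By definition the same share of all protein-coding genes lies above it. With the MANE Select length CLK3 (percentile 73.8) and CLK4 (58.3) also lay above the median of all genes with such a transcript. CLK2 (44.4) and DYRK1A (43.4) did not. The first place of SRPK1 was the same under all 3 lengths tried, whereas no other kinase kept its place under all 3.

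**Figure D3:**
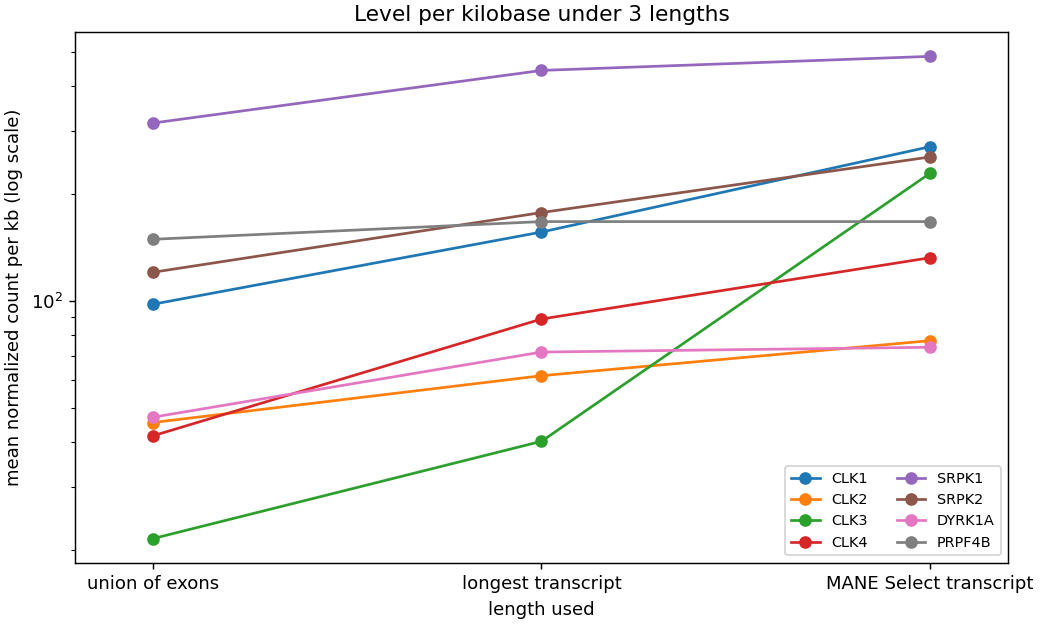
Authors' mean normalized count per kilobase (y axis, log scale) of each kinase when divided by the union of its exons, its longest transcript or its MANE Select transcript (x axis), one line per gene. SRPK1 is on top throughout, from 315.5 to 486 per kb, while CLK3 runs from the lowest value, 21.5, to 228.

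The same point bears on what a gene count holds. The authors counted reads per gene on exons of GENCODE release 19, and in the newer release used here introns 3 and 4 of CLK1, CLK3 and CLK4 lie inside annotated exons. Under such an annotation reads from a retained intron enter the gene total, so that a mature CLK1 transcript and one that keeps introns 3 and 4 both add to the 500.1 normalized counts. Of the exonic bases annotated for CLK1 63.9% lie outside the canonical transcript, for CLK4 68.4%, and for PRPF4B 10.8%. How release 19 drew these exons was not examined.

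Overlapping or duplicated sequence was found for every member but CLK1. Exons of LHFPL5 overlap those of SRPK1 on the opposite strand over 1879 bases, 28.1% of the exonic bases annotated for SRPK1. EDC3 overlaps CLK3 in the same way over 701 bases (3.56%) and KMT2E overlaps SRPK2 over 369 bases (4.76%). The libraries were stranded but stranded counting was not given in the sources used here. Whether reads over the bases shared with LHFPL5 entered the SRPK1 value is therefore unknown. On the same strand RN7SKP70 shares 161 exonic bases with CLK4 (2.03%) and AP001421.1 shares 234 with DYRK1A (0.87%). Of all 75-base windows of the canonical transcript, 3.32% occurred unchanged in another annotated gene for CLK2 (the pseudogene CLK2P1), 0.67% for SRPK2 (SRPK2P), 0.64% for PRPF4B (PRPF4BP1), 1.00% for DYRK1A and 0.56% for CLK3. For CLK1, CLK4 and SRPK1 no window was shared, so that no stretch of that length is the same in the canonical transcripts of CLK1 and CLK4. The authors' paired reads were longer than this window, so a shared window need not leave a read ambiguous.

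The protein families were then compared. Of 28 pairs, CLK1 and CLK4 were the most alike, with 80.0% identical residues over 479 aligned positions, and the 6 CLK pairs ranged down to 52.8% for CLK1 and CLK3. SRPK1 and SRPK2 shared 64.3%. The 21 pairs between families lay between 23.6% and 35.6%. The LAMMER string itself was found in CLK1, CLK2 and CLK4, and not in CLK3. Dipeptides of arginine and serine in either order are the kind of site that SRPK and CLK kinases modify. They numbered 61 in the 1007 residues of PRPF4B (6.06 per 100 residues), 24 in CLK3, 23 in CLK2 and 12 each in CLK1 and CLK4. SRPK1 had 2 in 655 residues, DYRK1A 4 and SRPK2 6. These dipeptides were thus more frequent in the CLK proteins and PRPF4B than in the SRPK proteins and DYRK1A.

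**Figure D4:**
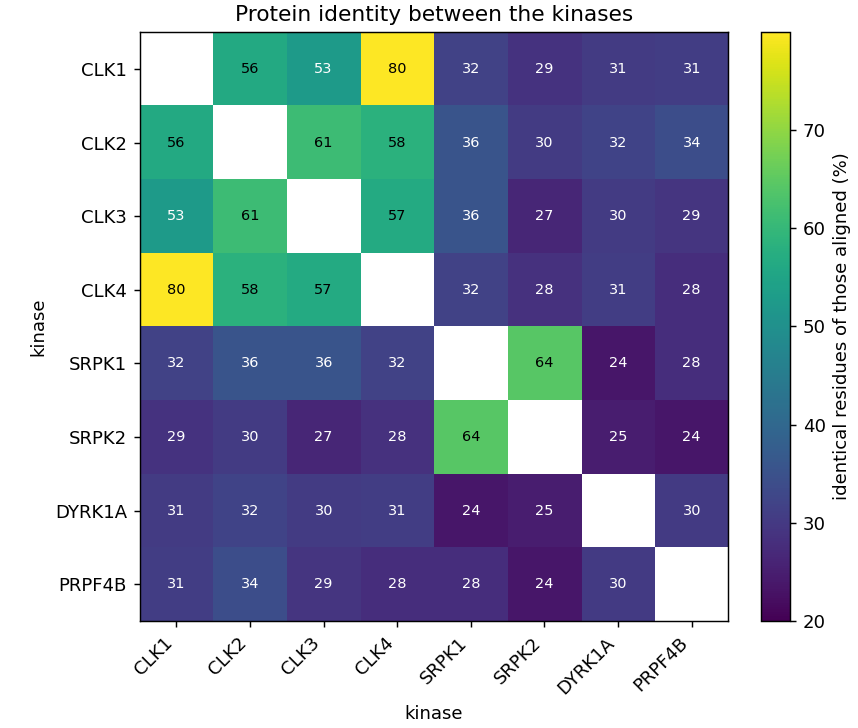
Identical residues as a percentage of aligned residues for each pair of kinases (colour and number, rows and columns in the same order), from global alignments of the reference proteins. The 6 CLK pairs (52.8% to 80.0%) and the SRPK pair (64.3%) stand out from the 21 pairs between families (23.6% to 35.6%).

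YTHDC1 reads m6A, which is placed mostly in the context GGAC, so the canonical transcripts were searched for this word on the sense strand. It occurred in 99.5% of 14014 protein-coding transcripts, with a median of 3.73 per kb. Of the 8 kinases 7 lay below that median, PRPF4B lowest with 12 words in 7517 bases (1.60 per kb), and CLK2 alone above it with 13 words in 2154 bases (6.04 per kb). The 7 ran from percentile 7.66 (PRPF4B) to 45.1 (DYRK1A), with CLK1 at 41.0 and CLK3 at 40.8, and CLK2 was at 81.4. Introns were not searched. For the longer word GGACT, which overlaps the first and was present in 91.5% of transcripts, CLK2 again had the highest density of the 8, 2.32 per kb against a median of 0.94 over all transcripts, and 5 of 8 kinases lay below the median. CLK1 had 1 GGACT in 1847 bases and CLK4 had 1 in 2504 bases. A word is not a methylated site, and methylation was not measured here.

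The kinases were set beside their relatives, substrates and partners, with levels per kb of exon union. Of 9 other kinases of the DYRK, HIPK and SRPK families 8 had a row, with a median of 96.4 normalized counts per kb (72.4 for the 8 members). With the MANE Select length the order was the opposite, 115 per kb for these relatives and 197 for the members. HIPK2, a kinase that phosphorylates p53, was highest (332 per kb) and DYRK3, a kinase that dissolves nuclear speckles and stress granules, was lowest (1.84 per kb). SRPK3, the muscle form, had no row. Of 14 SR and SR-like proteins, the substrates, 13 had a row, with a median of 333 per kb, the highest in SRSF2 (1047 per kb) and the lowest in SRSF12 (6.83 per kb), and none for SRSF8. The 8 RS proteins of nuclear speckles had a median of 329 per kb, from SRRM1 (204 per kb) to SRRM2 (983 per kb). Among the 9 tri-snRNP proteins, which PRPF4B works with, the median was 268 per kb, and PRPF8, the core of the spliceosome, was highest (989 per kb) and PRPF3 lowest (84.0 per kb). The catalytic subunits of the phosphatases PP1 and PP2A, which take phosphates off SR proteins, had a median of 342 per kb, from PPP2CB (225 per kb) to PPP1CC (358 per kb). SRPK1 (315.5 per kb) lay above the median of the tri-snRNP list and below those of the 3 other substrate and partner lists, and the 7 other kinases lay below all 4 medians. These places were the same with the MANE Select length, although the highest or lowest gene of the speckle, tri-snRNP and phosphatase lists was then another.

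Markers of the labelled cell line were present. Of the 9 epithelial and A549 markers AKR1B10 was highest per kb of exon union (13872), while ALDH1A1 was highest by mean (34836 normalized counts) and by MANE Select length (16620 per kb). EPCAM was lowest (24.0 per kb of exon union) and with 58.4 normalized counts lay below the median gene of the table (65.8). Of 4 blood markers 0 had a row, and of 3 endothelial markers CDH5 did (7.19 normalized counts). Of 4 fibroblast markers 3 did, the highest being COL1A1 (194 normalized counts, 21.5 per kb of exon union). By count COL1A1 thus lay above EPCAM.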

How the data were processed

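Stranded total RNA libraries of A549 cells (6 siYTHDC1, 6 siSCR, groups from the sample titles) were made after removal of ribosomal RNA. Alignment by the authors was to hg19 with STAR, reads on GENCODE release 19 genes were counted with HTSeq, and DESeq2 was run by the authors with a term for sequencing batch, whose membership is not given in the sources used here. The signal analysed is the mean of the normalized counts of the 12 libraries that the authors deposited. The fold change, its standard error, the statistic and the p-values in the same file are the authors' own comparison and were not used, so no test between groups was made. Library depth, spread and batch effects are therefore unknown.

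Gene IDs without version matched GENCODE release 44 lifted to GRCh37 for 21798 of 22564 genes (96.6%), and 14100 were protein-coding. This annotation gave coordinates, lengths, introns and proteins, and can differ from release 19. The canonical transcript is the one tagged so by Ensembl. A value per kb is the mean divided by a length in kilobases. Proteins were translated from the canonical coding sequence and aligned with Biopython (BLOSUM62, gap opening 11 and extension 1, end gaps free). Windows of 75 bases were matched exactly. Splice sites were read from the genome. Splice sites, exon 4, words and windows were added after the deposited data were seen. Members and lists were chosen with earlier results of these data known. Named were the 8 members, YTHDC1, and in each list the highest and lowest gene per kb and those without a row. The lists had no test, and their medians with the MANE Select length were added after seeing the data. Python 3.11.15, numpy 2.4.6, pandas 2.3.3, biopython 1.88 and matplotlib 3.10.9 were used.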

Additional observations from a re-analysis of the deposited data

How the results depend on the processing

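The median percentile of the 8 kinases by mean normalized count was 81.0 among all genes, 80.7 when all rows of a symbol were summed, 73.3 among genes with a mean of at least 10 and 70.1 among protein-coding genes. Each kinase had 1 row, so these settings changed the genes it was ranked among and not its own level. The median level per kb was 72.4 with the union of exons, 122 with the longest transcript and 197 with the MANE Select transcript, and the cause is the shorter length by construction. The 11 covered introns were the same number when transcripts of annotation levels 1 and 2 alone were used. Of protein-coding genes with introns 27.4% had a covered intron, and 29.8% of those with a mean of at least 100. The median protein identity over the 28 pairs was 31.0% in global and 35.0% in local alignments. No paired analysis was possible because the columns used carry no replicate numbers, and no library could be left out for the same reason. Counting error and the spread between libraries are unknown for every level given here.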
